A study of Mus musculus with 16 samples.

Results

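The early transcriptional response to hyperosmotic stress in cells without Nrf2 was described from 4 of the 16 RNA-seq libraries of the series. All 4 came from Nrf2-/- mIMCD3 cells, a mouse inner medullary collecting duct line, that had been treated with 10 µM sulforaphane (SFN) for 5 h. Libraries 1 and 2 of the isosmotic condition were compared with libraries 1 and 2 of cells then held in 600 mOsm medium for 1 h. Of 55367 gene symbols in the count tables, 15566 had enough counts in these 4 libraries to be tested. The rest of the series is WT cells given DMSO or SFN before isosmotic medium or 1 or 6 h of hyperosmotic stress, and the WT SFN libraries (2 isosmotic, 2 at 1 h) serve here as the comparison. The gene was disrupted with CRISPR/Cas9 delivered by lentivirus. Whether the Nrf2-/- cells were 1 clone is not given in the sources used here. SFN was present in every Nrf2-/- library used, and Nrf2-/- cells given DMSO were not analysed here, so the results describe stress in Nrf2-null cells that had also received SFN.

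Nrf2, encoded by Nfe2l2, is the transcription factor that is released from its inhibitor Keap1 by electrophiles such as SFN and switches on genes for glutathione synthesis, NADPH production and detoxification. Cells of the renal inner medulla face high and variable osmolality, and they are known to answer it slowly, by accumulating organic osmolytes through targets of NFAT5, and quickly, through stress kinases, immediate-early genes and a broad change in RNA synthesis and processing. Hyperosmotic stress is also known to impair the ending of transcription, so that RNA polymerase runs on past the ends of genes.

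The targeted gene was measured first. Nfe2l2 had 11.1 and 11.6 CPM (counts scaled to library size after TMM normalization) in the isosmotic Nrf2-/- libraries and 11.0 in 1 h library 1 and 11.0 in 1 h library 2, against 67.1 to 79.3 CPM in the 4 WT SFN libraries. Nqo1, the quinone reductase used as a reporter of Nrf2, had 0 and 0 counts in the isosmotic and 9 and 4 counts in the 1 h Nrf2-/- libraries, against 212 to 398 counts in WT. The epithelial identity of the line was present, with 8 of 8 renal epithelial markers at 1 CPM or more, while 1 of 11 collecting duct markers (Tfcp2l1) reached that level and Aqp2, the vasopressin-regulated water channel, had 0 to 2 counts. The summed level of the endothelial markers stayed between 0.215 and 1.05 CPM, and that of the immune markers was 3.81 and 5.45 CPM isosmotic and 8.90 and 5.89 CPM at 1 h. The Nrf2-/- libraries held 34484296 to 36544765 counts, within the range of the series (34484296 to 50774875).

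The pair of 1 h libraries was much wider than any other pair of the series. The biological coefficient of variation was 0.305 between them, 0.0839 between the isosmotic Nrf2-/- libraries and 0.0384 to 0.12 in the other groups. Of 11674 genes with a mean of at least 50 counts, 1194 (10.2%) lay at least 2-fold apart between the 1 h libraries, 929 of them higher in library 1 and 265 higher in library 2. The same gap was reached by 65 genes between the isosmotic libraries by 107 between the WT SFN 1 h libraries and by 182 between the WT SFN isosmotic libraries. Genes below are therefore described by both 1 h values, and list medians by the median of each 1 h library as well.

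The gap ran with transcript length. Among 155 genes with transcripts under 1 kb, the median log2 ratio of library 2 to library 1 was -1.26, and among 2037 genes above 8 kb it was 0.36. Relative to the isosmotic mean, the short genes had a median log2 shift of 0.67 in library 1 and -0.58 in library 2, and the long genes had -0.18 and 0.18. Across 10565 genes the Pearson correlation of log2 length with the gap was 0.53 for the 1 h pair, -0.09 for the isosmotic pair and -0.01 for the WT SFN 1 h pair, although the WT SFN isosmotic pair also had 0.35. Genes of 1 library share its depth and composition, so these correlations are descriptions. Ribosomal protein genes, which are short, took 5.69% of the counts in library 1 and 2.99% in library 2, against 3.79% and 3.86% in the isosmotic libraries. The widest single gaps were at short genes and at ribosomal protein genes with processed copies. Romo1, a small mitochondrial inner membrane protein, had 311 and 364 counts isosmotic, then 1154 in library 1 and 106 in library 2, and Pet100, an assembly factor of cytochrome oxidase, had 98 and 138, then 349 and 19. Rpl24, a protein of the large ribosomal subunit, had 177 and 207 counts, then 7 in library 1 and 262 in library 2, and the pseudogene Rps13-ps2 had 720 and 840, then 80 and 906. Reads of such genes can be shared with near-identical copies, so their counts are uncertain. RNA quality values were not analysed here, and the part of transcript length in the results was not tested beyond removing its trend, which left the same number of genes past the test.

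**Figure D1:**
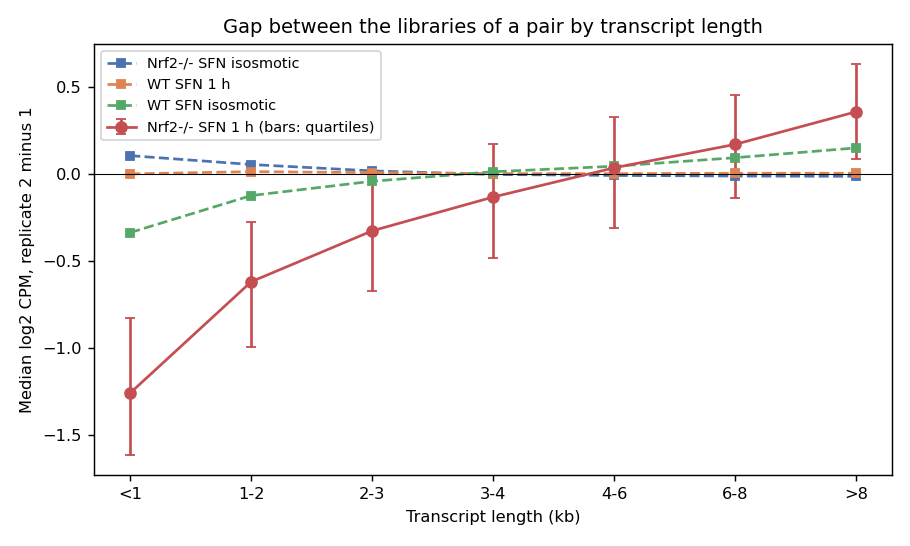
Gap between the libraries of each pair by transcript length, as the median log2 ratio of library 2 to library 1 in 7 length classes (bars on the Nrf2-/- 1 h pair are quartiles over genes). The Nrf2-/- 1 h pair runs from -1.26 in the shortest class to 0.36 in the longest, while the isosmotic Nrf2-/- pair and the WT SFN 1 h pair stay near 0 and the WT SFN isosmotic pair runs from -0.34 to 0.15.

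With that spread, 7 genes (0.045% of 15566) passed edgeR's quasi-likelihood test at a Benjamini-Hochberg adjusted p under 0.05. Tktl1, Krt15 and Col2a1 rose, and Mir100hg, Spaca6, 5430416N02Rik and Gm37795 fell. Many more lay just above the threshold (113 genes in all had an adjusted p under 0.06), and 1628 genes had an unadjusted p under 0.05, 891 higher and 737 lower. The count differed widely between methods. DESeq2 called 730 genes, and edgeR called 1399 when all 16 libraries shared 1 estimate of the spread, 851 higher (4.36% of 19509) and 548 lower (2.81%). The 7 genes were among those called in both. Leaving out 1 h library 1 gave 4840 calls, leaving out 1 h library 2 gave 3845, and leaving out isosmotic library 1 or 2 gave 408 or 405, again with the 7 genes among them. The labels number the libraries as replicates of each condition and do not say how the cultures were separated, so the p-values measure the spread between these libraries.

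Among the genes that rose, Tktl1, a transketolase-like protein related to the pentose phosphate enzyme Tkt, had 2 and 5 counts in the isosmotic libraries and 291 and 459 counts at 1 h. That was a log2 fold change of 6.76 (SE 0.52; edgeR adjusted p = 0.0377). Krt15, a keratin of basal epithelial cells, had 3 and 4 counts isosmotic and 262 and 150 counts at 1 h, and Col2a1, the cartilage collagen chain, had 9 and 8 against 159 and 197 counts. All 3 were nearly silent before stress and clearly counted in both 1 h libraries, with no overlap between the conditions. Their isosmotic counts were too low for the filter on low counts, so they entered the test only through their 1 h values. They were also low in isosmotic WT SFN cells, at 4 to 14 counts, and reached 176 to 573 counts there after 1 h. Tktl1 lies at chrX:74177259-74208500 (+), Krt15 at chr11:100131758-100135928 (-) and Col2a1 at chr15:97975602-98004695 (-) in GRCm38.

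The 4 genes that fell give non-coding or poorly coding transcripts apart from Spaca6, whose protein acts in sperm-egg fusion. Mir100hg, the host transcript of the miR-100, let-7a-2 and miR-125b cluster, had 237 and 283 CPM isosmotic and 29.2 and 30.4 CPM at 1 h. It fell by 3.11 on the log2 scale (SE 0.21; edgeR adjusted p = 0.0321). Spaca6 had 38.5 and 34.9 CPM isosmotic and 5.41 and 4.38 CPM at 1 h, a log2 fold change of -2.89 (SE 0.24; edgeR adjusted p = 0.0377). 5430416N02Rik went from 844 and 1050 counts to 53 and 53, and Gm37795 from 323 and 364 counts to 9 and 4. For these 4 genes both 1 h values lay far below the isosmotic ones, and close together except for Gm37795. Closeness within the pairs helped them pass the test, so it is not added evidence. In WT SFN cells the values were also lower at 1 h, Spaca6 at 32.8 and 34.4 CPM isosmotic and 3.01 and 3.88 CPM at 1 h, and Mir100hg at 20.3 and 23.1 against 1.20 and 2.93 CPM, from a starting level far under that of the Nrf2-/- cells.

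**Figure D2:**
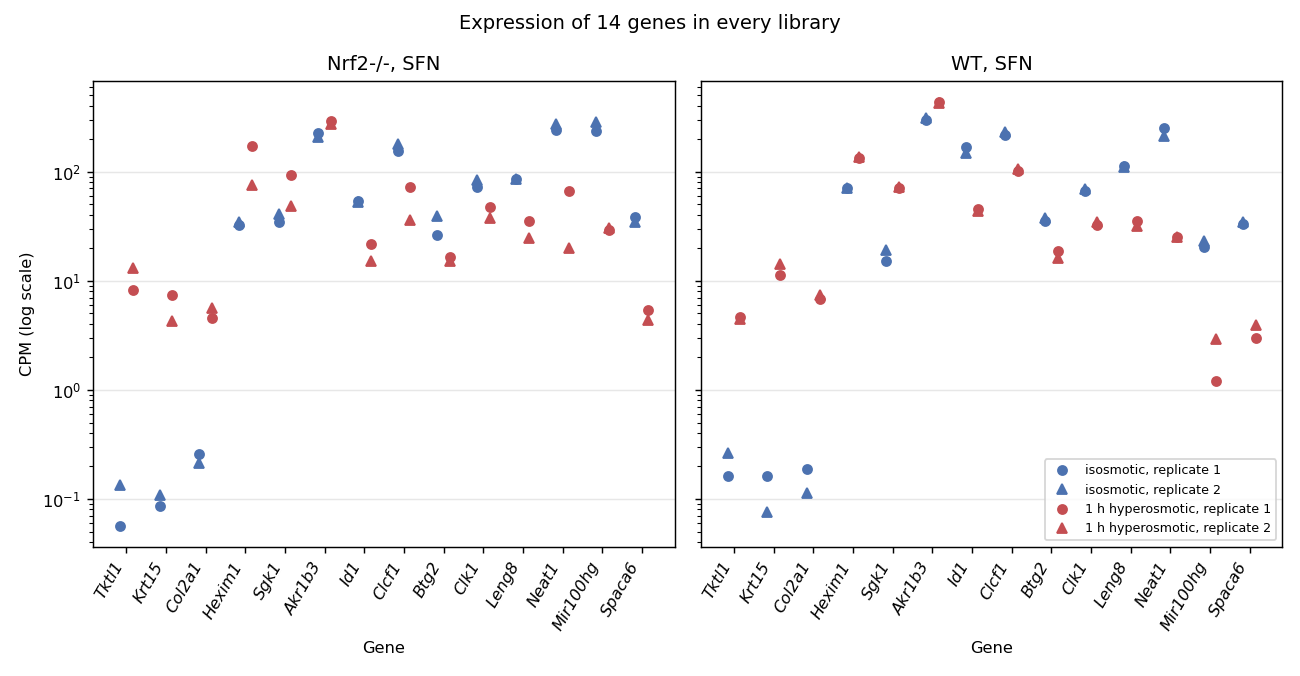
Level of selected genes in each Nrf2-/- SFN library and each WT SFN library, in CPM on a log axis, isosmotic and after 1 h at 600 mOsm. Mir100hg and Spaca6 sit together and low in both 1 h libraries, whereas Neat1 reads 66.3 CPM in Nrf2-/- 1 h library 1 and 20.1 CPM in library 2.

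Promoter sequences are shown for a gene that rose, a gene that fell and Hexim1, the one gene above 5 CPM before stress whose values were at least 2-fold higher in both 1 h libraries. Each is 250 bases before to 50 bases after the start from RefSeq (GRCm38.p6), 5′ to 3′, and capitals mark the letters TATAA and TGGAAA, the core letters of the TATA box and of the site that NFAT5 binds, searched on both strands.
Tktl1, chrX:74177009-74177308 (+): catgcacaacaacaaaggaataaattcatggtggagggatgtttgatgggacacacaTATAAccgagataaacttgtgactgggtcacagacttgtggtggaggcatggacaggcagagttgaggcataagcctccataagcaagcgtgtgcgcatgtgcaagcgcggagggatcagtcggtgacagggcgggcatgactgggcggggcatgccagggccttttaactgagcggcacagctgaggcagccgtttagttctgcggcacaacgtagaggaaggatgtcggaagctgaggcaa
Spaca6, chr17:17830725-17831024 (+): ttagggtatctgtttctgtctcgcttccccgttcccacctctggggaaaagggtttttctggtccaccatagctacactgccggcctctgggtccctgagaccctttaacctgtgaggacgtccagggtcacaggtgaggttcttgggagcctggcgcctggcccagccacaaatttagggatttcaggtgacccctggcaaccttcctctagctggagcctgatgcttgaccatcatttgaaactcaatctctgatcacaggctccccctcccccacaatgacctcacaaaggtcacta
Hexim1, chr11:103116075-103116374 (+): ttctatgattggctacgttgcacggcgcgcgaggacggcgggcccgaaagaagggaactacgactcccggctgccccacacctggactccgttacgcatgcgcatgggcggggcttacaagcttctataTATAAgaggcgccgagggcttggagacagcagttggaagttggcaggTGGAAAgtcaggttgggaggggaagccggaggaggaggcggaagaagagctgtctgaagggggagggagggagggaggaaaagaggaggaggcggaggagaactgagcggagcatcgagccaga
Hexim1 held both motifs, Tktl1 held TATAA and Spaca6 neither. TGGAAA occurred in 21.4% of all 32851 promoters and TATAA in 24.9%. Of the promoters of genes with at least 2-fold higher values in both 1 h libraries, TGGAAA was in 21.9% where the gene had been silent and in 22.7% where it had not, near the share of all promoters, and in 22.2% for genes with lower values. The other tested genes had 16.6%. They also had more CpG dinucleotides, a median of 20 per promoter against 6 to 11, so base composition differed between these sets. A match says only that the letters are there.

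Because the wide pair left few genes past the test, the values were also described by separation, a criterion chosen after seeing the data. A gene was separated when the lower of its libraries in 1 condition was at least 2-fold above the higher of its libraries in the other. By this description 789 genes (5.07%) were higher and 430 (2.76%) lower at 1 h. Of the 789 higher genes, 600 were silent before stress, under 0.1 CPM, and could pass the filter on low counts only through their 1 h values. Leaving silent genes out, 189 (1.26%) were higher and 430 (2.88%) lower. Among the 10051 genes at 5 CPM or more in isosmotic cells, 1 was higher (0.00995%) and 59 were lower (0.587%). At this level the separated change was thus almost entirely downward. The cut partly sets this, since it was made on isosmotic values and leaves out genes that rose from below it. Over all genes tested, 2730 (17.5%) were higher and 2838 (18.2%) lower at 1 h without overlap.

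The lower genes were unevenly spread over gene classes. Long non-coding RNAs were separated lower in 176 of 1185 (14.9%), TEC models (unverified transcripts) in 93 of 450 (20.7%) and small nucleolar RNAs in 29 of 63 (46%), while protein-coding genes were so in 67 of 12336 (0.543%). Many of these non-coding transcripts had few counts and passed the filter through their isosmotic values, as all 29 small nucleolar RNAs had a mean under 50 counts, so these shares are descriptions that the filter partly sets. Among genes with a mean of 50 to 500 counts over the 4 libraries, the shares were 41 of 284 long non-coding RNAs (14.4%), 20 of 87 TEC models (23%) and 18 of 2526 protein-coding genes (0.713%), beside 2.58% of all genes at that level. AF357399, a small nucleolar RNA, had 27 and 23 counts isosmotic and 4 and 2 counts at 1 h. Neat1, the RNA scaffold of paraspeckles, had 241 and 272 CPM isosmotic and 66.3 and 20.1 CPM at 1 h. Its edgeR adjusted p was 0.0981, and the level was much lower in library 2 than in library 1. Among miRNA host transcripts, Mir17hg had 683 and 908 counts isosmotic and 92 and 21 counts at 1 h, and Dleu2, host of miR-15a and miR-16-1, had 373 and 633 against 61 and 44 counts. Snhg4, a small nucleolar RNA host, had 28.0 and 37.3 CPM against 7.17 and 4.61 CPM (edgeR adjusted p = 0.0537). Fewer cells and less RNA per cell cannot be told apart in such bulk libraries.

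Protein-coding genes with lower values included regulators of transcription and differentiation. Id1, an inhibitor of basic helix-loop-helix factors induced by BMP signalling, had 1872 and 1972 counts isosmotic and 760 and 532 at 1 h, a log2 fold change of -1.52 (SE 0.23) that missed the threshold (edgeR adjusted p = 0.0653). Nr6a1, an orphan nuclear receptor, had 23.1 and 23.9 CPM against 8.76 and 9.44 CPM, and Rbm4b, a splicing regulator, 32.9 and 33.9 against 11.5 and 10.9 CPM. Clcf1, a cytokine of the IL-6 family, had 156 and 178 CPM against 71.5 and 36.1 CPM. Cox17, a copper chaperone of cytochrome oxidase, had 14.1 and 12.9 against 2.55 and 1.86 CPM, and Slc16a4, a monocarboxylate transporter, had 204 and 233 against 39 and 37 counts. Within this set, 6 of the 269 zinc finger genes with Zfp, Zscan or Zkscan symbols were lower (2.23%), against 23 of 9529 protein-coding genes at the same level (0.241%). Zfp866 had 28.7 and 28.0 CPM isosmotic and 10.0 and 11.7 CPM at 1 h. Hexim1, which holds the elongation factor P-TEFb inactive, stood alone in the other direction, with 32.1 and 34.7 CPM isosmotic and 173 and 76.1 CPM at 1 h (log2 fold change 1.91, SE 0.38; edgeR adjusted p = 0.0951).

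Many loci that were silent in isosmotic Nrf2-/- cells gave counts after 1 h. Of 36486 silent genes with a position, 640 (1.75%, exact binomial 95% interval 1.62 to 1.89, for counting error only) had at least 10 counts in both 1 h libraries, 1037 in library 1 and 1276 in library 2. Fbxo41, a brain F-box gene, had 0 and 0 counts isosmotic and 154 and 140 at 1 h, at least 50.5-fold higher when the isosmotic libraries are set to a floor of 3 counts each. Vmn2r83, a vomeronasal receptor, had 0 and 0 against 129 and 152 counts. Kl, which encodes the FGF23 co-receptor klotho, had 0 and 0 against 79 and 80 counts. The 1 h libraries were close to each other for these 3 genes, and none of them passed the test (edgeR adjusted p = 0.0528 to 0.0537). Genes with a few isosmotic counts had the same pattern. Kcp, a secreted regulator of BMP signalling, had 4 and 6 counts against 312 and 155, Ampd1, the muscle AMP deaminase, 8 and 6 against 117 and 151, Osbp2, an oxysterol-binding protein, 5 and 2 against 116 and 163, and the cytokine gene Il17f 5 and 4 against 111 and 88. Their edgeR adjusted p was 0.0537 in each case.

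The share of silent genes that gained counts depended on what lay before them. Where a silent gene began within 5 kb after the end of an expressed gene on the same strand, 17.5% gained at least 10 counts in 1 h library 1 and 17.9% in library 2 (441 genes). The shares were 18.4% and 20.6% at 5 to 10 kb, 11.9% and 14.2% at 10 to 50 kb, 4.07% and 4.84% at 50 to 100 kb, and 1.02% and 1.47% beyond 100 kb (25096 genes). Silent genes that lay within 5 kb before the start of an expressed gene, with none within 100 kb before them, gave 3.02% and 6.04% (265 genes). Both libraries thus had their highest shares within 10 kb after a gene end and their lowest beyond 100 kb. For genes gaining counts in both libraries, the exact binomial intervals were 7.94 to 13.9% in the nearest class and 0.524 to 0.722% in the farthest. These intervals cover counting error only and treat each gene as independent, although some silent genes follow the same expressed gene. They are therefore descriptions and not a test of the difference between the classes. In WT SFN cells at 1 h the same genes gave 21.8% and 23.6% in the nearest class and 2.41% and 2.43% in the farthest, while isosmotic WT SFN cells gave 3.85% and 6.80% in the nearest and 1.45% and 1.76% in the farthest. A smaller decline with distance was therefore present without hyperosmotic stress.

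Named examples lay both near to and far from such ends. Krt15 begins 4.88 kb after the end of Krt19, a keratin expressed at 307 to 426 CPM in these libraries, and Krt13, which begins 19.2 kb after the same end, had 0 and 4 counts isosmotic and 232 and 184 at 1 h. L3mbtl1, a chromatin compactor, begins 6.35 kb after Srsf6 and had 4 and 2 against 108 and 103 counts, and Klhl35 begins 4.13 kb after Gdpd5 and had 4 and 1 against 116 and 103. Tktl1, by contrast, lies 386 kb after the nearest expressed gene on its strand, Ssr4, and Vmn2r83 lies 884 kb after one. In all, 106 of the 640 genes lay within 10 kb after an expressed gene. Of all 36486 silent genes, 441 lay within 5 kb after one and 461 at 5 to 10 kb. Whether the reads came from transcripts that began at the upstream gene was not tested, and the counting strand is not given in the sources used here.

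**Figure D3:**
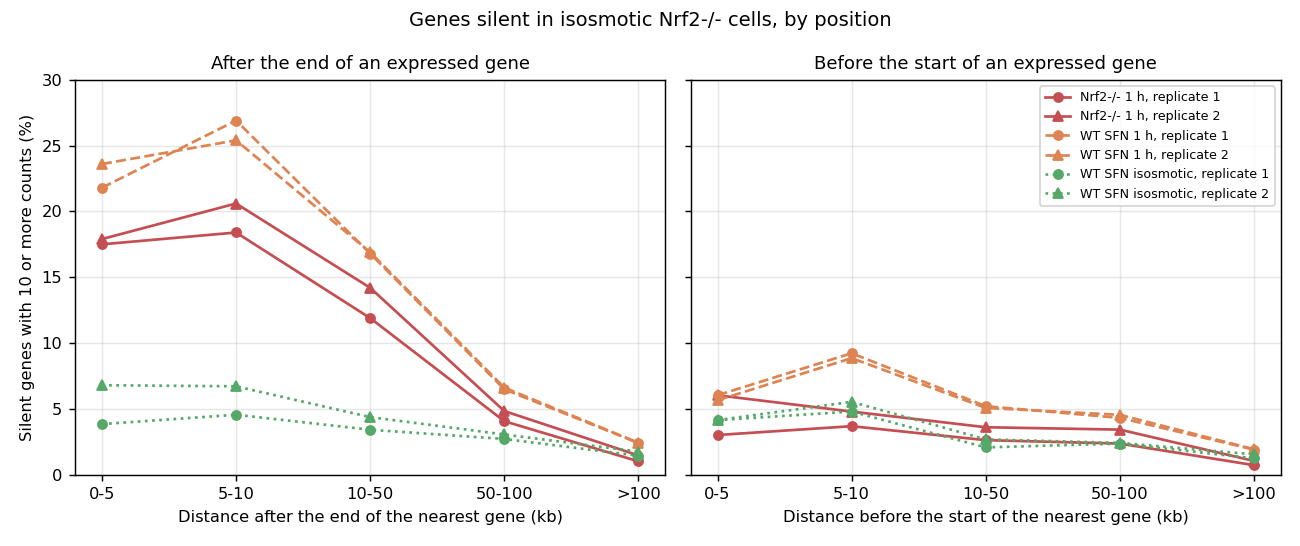
Percent of silent genes that had at least 10 counts, by distance after the end, or before the start, of the nearest expressed gene on the same strand, for the Nrf2-/- 1 h libraries and the WT SFN libraries (isosmotic Nrf2-/- libraries are at 0 because they chose the genes). In both Nrf2-/- 1 h libraries the share runs from 17.5% and 17.9% within 5 kb after an end to 1.02% and 1.47% beyond 100 kb.

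Genes of stress signalling were read from 15 lists, none of whose members passed the test in the 4 Nrf2-/- libraries (0.0193% of all genes were called higher and 0.0257% lower). Of the immediate-early genes, 24 of 26 were tested, with a median log2 fold change of -0.17 against 0.04 over all genes tested. The median shift was 0.03 in 1 h library 1 and -0.37 in library 2, so the negative median came from library 2. The 1 h libraries lay wholly below the isosmotic ones for 9 of the 24 and wholly above for 1, beside 18.2% and 17.5% of all genes. Btg2, an antiproliferative early gene, had 26.3 and 39.3 CPM isosmotic and 16.6 and 15.2 CPM at 1 h. Zfp36, which binds AU-rich mRNAs and speeds their decay, had 11.9 and 13.9 against 6.86 and 6.38 CPM. Both were lower in each 1 h library, and both were called in the fit over all 16 libraries (edgeR adjusted p = 0.00167 and 0.000832). Fos, the founding AP-1 member, had overlapping values of 4.55 and 7.81 against 7.54 and 4.92 CPM, and so did Fosb, at 14.3 and 12.5 against 16.1 and 12.0 CPM.

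Feedback inhibitors of MAP kinase signalling had the lowest median of the lists, -0.38 over 15 genes, with shifts of -0.45 and -0.28 in 1 h libraries 1 and 2, and 10 of the 15 were lower in both 1 h libraries without overlap, beside 18.2% of all genes. Dusp2, a nuclear MAP kinase phosphatase, had 13.9 and 18.8 CPM isosmotic and 4.25 and 7.10 CPM at 1 h, and Dusp6, which dephosphorylates ERK, had 194 and 233 against 117 and 147 CPM. The edgeR adjusted p was 0.109 for Dusp2 and 0.287 for Dusp6. Kruppel-like factors had a median of -0.25 over 11 genes, with shifts of -0.60 in library 1 and -0.11 in library 2. Klf10, induced by TGF-beta, had 104 and 106 against 69.4 and 76.5 CPM, whereas Klf4, a factor of epithelial differentiation, had 34.4 and 37.2 against 60.8 and 40.8 CPM. Among splicing genes the median was -0.24 over 15 (-0.20 in library 1 and -0.34 in library 2), and the kinases Clk1 and Clk4, which phosphorylate SR proteins, had the lowest fold changes. Clk1 had 72.8 and 84.5 CPM against 47.0 and 37.8, and Clk4 had 1732 and 1974 counts against 1155 and 760.

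The osmolyte genes had a median log2 fold change of 0.09 over the 9 of 13 members tested, with shifts of -0.12 in 1 h library 1 and 0.30 in library 2. The 1 h values lay above the isosmotic ones without overlap for 3 of the 9 and below for 2, beside 17.5% and 18.2% of all genes. Sgk1, the kinase that raises sodium transport, had 34.5 and 40.5 CPM isosmotic and 92.5 and 47.9 CPM at 1 h (edgeR adjusted p = 0.34). Akr1b3, the aldose reductase that makes sorbitol, had 227 and 208 against 291 and 273 CPM. Both stood above their isosmotic values in each 1 h library. Nfat5 itself had 378 and 388 against 255 and 470 CPM, and Slc5a3, the myo-inositol transporter, had 181 and 186 against 118 and 233 CPM, each below the isosmotic pair in library 1 and above it in library 2. S100a4, a calcium-binding protein, was the one member separated lower, with 24 and 30 counts against 9 and 11. Slc6a12, the betaine transporter, had 1 and 0 counts isosmotic and none in either 1 h library, too few to compare. Of the 11 transporters and channels that the study followed as osmoprotective, 6 were tested, with a median of 0.16 and shifts of 0.23 and 0.14 in 1 h libraries 1 and 2. That list was drawn by the study from these libraries and is not independent evidence. Trpv2, a cation channel, had 20 and 25 counts against 62 and 81 (edgeR adjusted p = 0.12).

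Several other lists had calls in opposite directions in the 1 h libraries. Each 1 h library was therefore also set alone against the isosmotic pair, with the lone library assumed to vary like that pair. Both readings use the same isosmotic libraries. In library 1, 2098 genes (12.7%) were called higher and 1747 (10.6%) lower, and in library 2, 2456 (14.8%) higher and 2384 (14.3%) lower. Of 77 ribosomal protein genes, 65 were called higher and 2 lower in library 1, and 1 higher and 49 lower in library 2. Of 83 respiratory chain genes, 65 were higher and 0 lower in library 1, and 0 higher and 51 lower in library 2. Neither list therefore has one direction at 1 h. Heat shock genes gave 10 higher and 1 lower in library 1 and 4 higher and 6 lower in library 2, and p53 and Gadd45 genes 6 higher and 2 lower against 1 higher and 6 lower.

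Single genes had the same disagreement. Gadd45g, which activates p38 and JNK kinases, had 614 and 745 counts isosmotic, then 3254 counts in 1 h library 1 (92.2 CPM) and 456 counts in library 2 (13.1 CPM). Gadd45b had 82.3 and 81.8 CPM, then 167 and 49.7, and Ppp1r15a, the phosphatase subunit that ends the integrated stress response, had 1278 and 1447 counts, then 3530 and 1150. Each of these 3 genes read above the isosmotic pair in library 1 and below it in library 2. The WT SFN values at 1 h were 113 and 113 CPM for Gadd45g and 108 and 108 CPM for Ppp1r15a, nearer library 1 in both cases. Neat1, at 25.1 and 24.9 CPM in WT SFN cells at 1 h, was nearer library 2. Across 11674 genes with a mean of at least 50 counts, the shift of library 1 had a Pearson correlation of 0.63 with the WT SFN shift. That of library 2 had 0.59, and the Spearman correlations were 0.36 and 0.23. Between the shifts of the 1 h libraries themselves, the Pearson correlation was 0.37 and the Spearman correlation -0.13 over the same genes. For the 6511 genes with a mean of at least 1000 counts they were -0.33 and -0.40, so well-counted genes tended to shift in opposite directions. Hspe1, the mitochondrial co-chaperonin, had 200 and 248 CPM isosmotic and 437 and 156 CPM at 1 h. Hspa1b, the stress-inducible Hsp70, had 249 and 275 CPM, then 381 and 253, the last within its isosmotic range. Hspa1a, also on the heat shock list, had 22 and 34 counts isosmotic and 84 and 60 at 1 h, higher in both libraries (edgeR adjusted p = 0.229).

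The targets of Nrf2 had a median log2 fold change of 0.03 over 23 tested genes, with shifts of 0.13 in 1 h library 1 and -0.14 in library 2, and none passed the test. Hmox1, heme oxygenase, had 37.6 and 49.5 CPM isosmotic and 51.7 and 24.3 CPM at 1 h, against 252 to 328 CPM in WT SFN cells. Srxn1, the sulfiredoxin that reactivates peroxiredoxins, had 22.0 and 21.3 against 24.1 and 24.8 CPM, and Gclc, the catalytic subunit of glutathione synthesis, had 1864 and 2037 against 1697 and 1857 counts. Slc7a11, the cystine transporter, had 73.4 and 67.8 against 49.3 and 102 CPM. It had 29.9 to 42.2 CPM in WT SFN cells, below each Nrf2-/- value.

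For the remaining lists the median log2 fold changes were 0.08 for cholesterol synthesis (18 genes), 0.08 for mitosis (20), -0.05 for the circadian clock (15), 0.05 for the integrated stress response (21), -0.05 for NF-kB targets and chemokines (15 tested) and -0.22 for BMP and TGF-beta targets (10 tested). The integrated stress response had shifts of 0.17 in 1 h library 1 and -0.19 in library 2, so its small median joins opposite values, and NF-kB targets had 0.04 and -0.21. BMP and TGF-beta targets had -0.07 and -0.44, both below 0. The heat shock list, with a median of 0.14, had 0.27 and -0.05, and p53 and Gadd45 genes, with 0.05, had 0.21 and -0.17. Cholesterol genes had -0.07 and 0.10, mitotic genes -0.07 and 0.07 and clock genes -0.17 and -0.03. Mki67, a proliferation marker, had 536 and 520 CPM isosmotic, then 390 CPM in library 1 and 870 CPM in library 2. Among chemokines, Cxcl1 had 148 and 217 counts, then 291 and 67, and Cxcl2 had 40 and 45, then 77 and 10. Both neutrophil attractants therefore lay above the isosmotic pair in library 1 and below it in library 2, while the WT SFN cells had 384 and 320 counts of Cxcl2 at 1 h after 30 and 31. Il6 had 0 and 0 CPM isosmotic and 0.453 and 2.17 CPM at 1 h, and Nfkbiz, a nuclear IkB protein, had 38.7 and 49.8 CPM against 23.5 and 11.4 (edgeR adjusted p = 0.174).

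**Figure D4:**
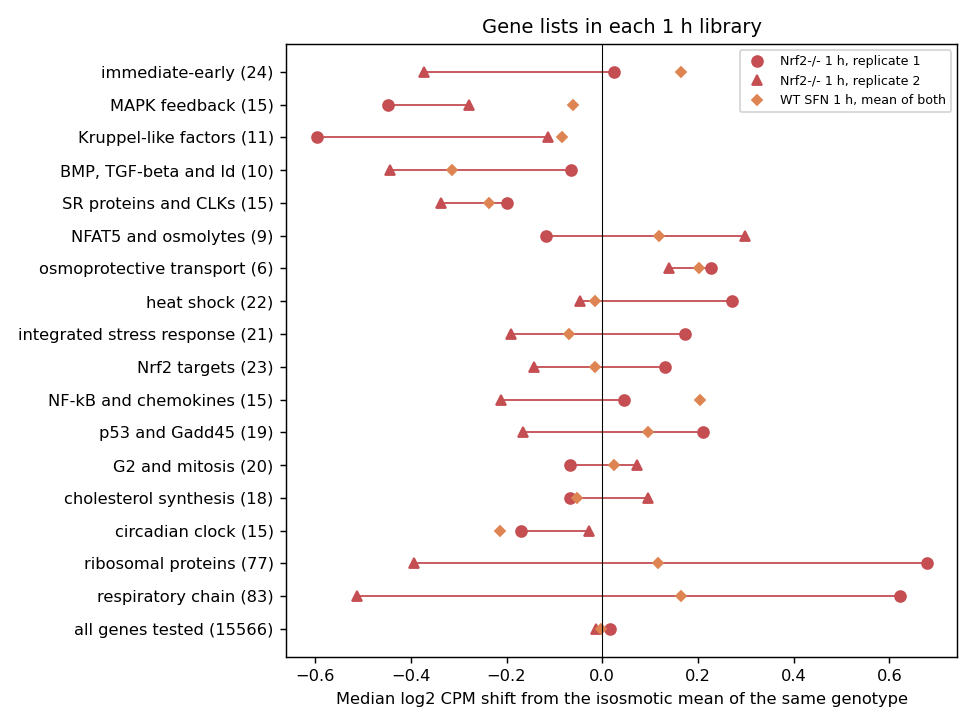
Median log2 shift from the isosmotic mean for each gene list, in Nrf2-/- 1 h library 1 (circles), in library 2 (triangles) and in WT SFN cells (diamonds), with the number of genes in brackets. MAP kinase feedback genes lie below 0 in both Nrf2-/- libraries, while ribosomal protein genes are at 0.68 in library 1 and -0.39 in library 2.

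The response was then set against that of WT cells given SFN. No gene of 17492 passed the edgeR test of the difference between the responses (0%), with 807 at an unadjusted p under 0.05. DESeq2 called 43, the fit over all 16 libraries 24 and limma voom with quality weights 6. Leaving out 1 h library 1 gave 1638 and leaving out 1 h library 2 gave 879, with the lone library assumed to vary like the other groups. In its own fit the WT SFN response had 2567 called genes of 16155, with a much narrower pair at 1 h, so the counts of calls in these genotypes cannot be compared as sizes of response. Genes with non-overlapping values ran the same way in both genotypes in most cases. Of the 15566 genes tested, 1533 were higher and 1691 lower in both, and 538 (3.46%) were opposite. Of the 789 genes separated higher in Nrf2-/- cells, 566 were also separated higher in WT SFN cells (71.7% of 789 and 71.9% of the 787 in WT). Of the 430 lower genes 254 were shared (59.1% of 430 and 52.6% of 483). The silent genes weigh on the first of these, since they entered through their 1 h values, and WT values were read only for genes that passed the Nrf2-/- filter. Among 14525 genes not silent in either genotype, 148 were separated higher in Nrf2-/- cells (1.02%) and 210 in WT SFN cells (1.45%), with 69 in both (46.6% of 148 and 32.9% of 210). For lower values 252 were in both (60.1% of 419 and 52.6% of 479). Across 11674 genes the mean shifts of the genotypes had a Pearson correlation of 0.74 and a Spearman correlation of 0.44. Some of these genes, such as Fbxo41, were silent before stress and reached the count minimum only through their 1 h values. The same genes gave the correlations of each 1 h library with the WT SFN shift.

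The genes called different under DESeq2 and under the fit over all 16 libraries included Klf4, Fosb, Nfkbia and Pde4c, which were picked from those calls after their values were seen. Klf4 had 34.4 and 37.2 CPM in isosmotic Nrf2-/- cells and 60.8 and 40.8 CPM at 1 h, against 6.72 and 6.10 CPM and then 27.4 and 27.7 CPM in WT SFN cells. The log2 fold change was lower by 1.61 in Nrf2-/- cells (edgeR adjusted p = 0.467), and DESeq2, voom and the fit over all 16 libraries called it. Fosb had 1.94 and 2.98 CPM and then 9.21 and 9.36 CPM in WT SFN cells, whereas its Nrf2-/- values overlapped at a higher level. Nfkbia, the NF-kB inhibitor that NF-kB itself induces, had 30.8 and 35.0 against 32.1 and 23.2 CPM in Nrf2-/- cells, and 49.6 and 44.8 against 84.2 and 86.2 CPM in WT SFN cells. Pde4c, a cAMP phosphodiesterase, went the other way, from 0 and 0.0537 CPM to 2.72 and 3.23 CPM in Nrf2-/- cells, while WT SFN cells had 3.44 and 2.81 CPM and then 2.85 and 2.80 CPM.

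**Figure D5:**
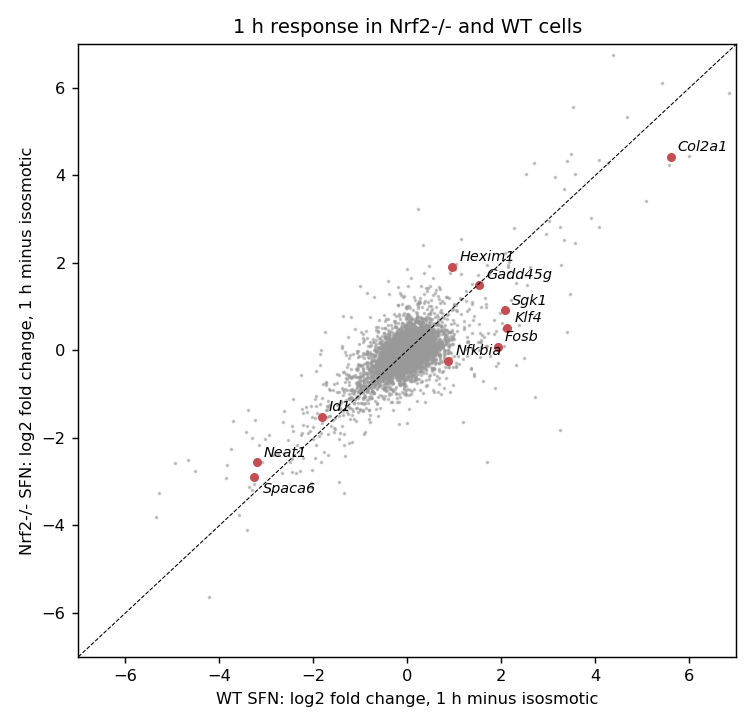
Log2 fold change after 1 h (fitted, each genotype on its own) in Nrf2-/- SFN cells against that in WT SFN cells for 11566 genes. Of these, 1 lies outside the axes. The genes had a mean of at least 50 counts over the Nrf2-/- libraries and were tested in each genotype. They also averaged more than 3 counts per isosmotic library in each genotype, so silent genes such as Fbxo41 and Vmn2r83 are not drawn. Most drawn genes with large shifts lie along the diagonal, among them Col2a1 above 0 and Neat1 and Spaca6 below it.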

How the data were processed

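RNA from the cells was extracted with TRIzol and sequenced on an Illumina NovaSeq. One extraction note names primary TEC, whereas the other labels name mIMCD3. The authors deposited raw counts per gene symbol for each library, and these counts are the unit used. Their notes name Bowtie2, SAMtools, featureCounts and mm10, and the study's methods name Hisat2. The annotation and strand setting are not given in the sources used here. The 37 mitochondrial genes were at 0 in every library, and 62.3 to 68.5% of counts from 1 to 10 in the Nrf2-/- libraries were even.

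Counts were filtered with edgeR 4.0.16 (filterByExpr), TMM-normalized and tested with its robust quasi-likelihood test, Benjamini-Hochberg adjusted, under R 4.3.3. The stress response used the 4 Nrf2-/- libraries and the difference of responses used these and the 4 WT SFN libraries. Fold changes of fits are log2. Log2 CPM for shifts used a prior count of 2. With 2 libraries per condition, an exact permutation test of a single gene cannot go below p = 0.333. Alternatives were DESeq2 1.42.0, limma 3.58.1, other filters and normalization, a replicate block and leaving out each library. Positions came from GENCODE M21 (GRCm38), which matched 53253 of 55367 symbols. Expressed neighbours had at least 1 CPM. Named genes were list members, called genes and, where fewer than 15 were called in a direction, the uncalled with the smallest p whose conditions did not overlap (mean of at least 50 counts), the 8 with the widest gap between the 1 h libraries in each direction, and examples chosen after their values were seen. Members and lists were chosen with earlier results of these data known. Scripts were tested on simulated counts. A few items are not reported here.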

Additional observations from a re-analysis of the deposited data

Results flagged for a closer look

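For 9 list members the values at 1 h lay on opposite sides of the isosmotic values in Nrf2-/- and WT SFN cells without overlap, with an unadjusted p under 0.05 for the difference. None passed the edgeR adjusted test of the difference, and 21 of 234 list members with a mean of at least 50 counts were opposite in this way, beside 402 of 11931 genes at the same level (3.37%). The differences of the log2 fold change, Nrf2-/- minus WT SFN, were negative for 8 of them. They were -1.25 for Smad7, an inhibitor of TGF-beta receptors, -0.97 for Myc, -0.96 for Dusp10, a phosphatase of p38 and JNK, -0.77 for Nr4a2, -0.70 for Tnfaip3, the NF-kB feedback enzyme A20, -0.56 for Lif, -0.52 for Dusp1 and -0.48 for Tnfaip2. Smad7 had 70.0 and 68.7 CPM isosmotic and 61.4 and 37.3 CPM at 1 h in Nrf2-/- cells, and 62.2 and 58.0 against 99.0 and 103 CPM in WT SFN cells. Myc had 314 and 347 against 299 and 198 CPM in Nrf2-/- cells and 175 and 195 against 267 and 276 CPM in WT. Dusp10 had 42.4 and 49.3 against 37.2 and 30.7 CPM in Nrf2-/- cells and 18.2 and 19.6 against 26.6 and 27.5 CPM in WT. Tnfaip3 had 41.9 and 44.9 against 41.4 and 39.4 CPM in Nrf2-/- cells and 30.1 and 31.8 against 48.1 and 45.3 CPM in WT, so the Nrf2-/- values barely separated. The same held for Nr4a2, with 18.5 and 18.9 against 18.3 and 16.2 CPM, and for Tnfaip2, with 34.2 and 34.6 against 32.4 and 33.5 CPM in Nrf2-/- cells. Lif had 101 and 109 against 91.4 and 63.3 CPM, and Dusp1 had 48.6 and 57.8 against 37.2 and 39.3 CPM in Nrf2-/- cells. The difference was positive for Hspb8, a small heat shock protein (0.74), with 19.4 and 18.3 against 24.2 and 22.1 CPM in Nrf2-/- cells and 15.6 and 15.5 against 10.2 and 12.5 CPM in WT.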

How the results depend on the processing

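Against 7 genes called, the stress response had 730 with DESeq2, 815 with no filter, 2 with at least 10 counts in every library, 1399 over all 16 libraries, 282 with limma voom and quality weights, and 894 with the replicate block. Leaving out 1 library gave 405 to 4840. Without 1 h library 1 it was 4840, without 1 h library 2 3845, without isosmotic library 1 408 and without isosmotic library 2 405. RLE size factors and removal of the length trend (added after seeing the data) each left 7. The cause of these differences was not tested. Same-numbered libraries did not deviate together (r = -0.01), so the numbers were not taken as pairs and the block is a value only. For the difference of responses, against 0 called, DESeq2 gave 43, no filter 56, all 16 libraries 24, voom 6, the replicate block 0, and leaving out 1 library 0 to 1638. Leaving out 1 library, list medians ranged from -0.065 to 0.11 for cholesterol genes, -0.17 to -0.016 for clock genes, -0.059 to 0.086 for mitotic genes, -0.59 to -0.11 for Kruppel-like factors, -0.18 to 0.14 for Nrf2 targets, 0.13 to 0.23 for the study's osmoprotective genes, -0.32 to -0.12 for splicing genes and -0.36 to 0.03 for immediate-early genes. Silent genes with at least 10 counts numbered 1037 in 1 h library 1 and 1276 in library 2, against 640 in both. The log2 fold changes of 36 named genes kept their direction under all alternatives run, with 196 of 423 values newly past the threshold and 2 no longer past it. All 36 had shifts of the same sign in both 1 h libraries, so their direction without 1 of these libraries was fixed beforehand. Some other named genes were not among the 36 and changed direction. With 1 h library 1 or 2 alone, the log2 fold change was -0.58 or 0.31 for Nfat5 and 2.31 or -0.51 for Gadd45g. Between the 1 h libraries, 882 genes instead of 1194 were 2-fold apart once the length trend was removed. With 2 libraries per condition and a wide 1 h pair, a gene that missed the threshold is not shown to be unchanged.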
